A study of Mus musculus with 6 samples.

Results

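The 9 genes described here are the 3 C1q chain genes (C1qa, C1qb and C1qc) and 6 genes used as markers of monocytes and macrophages (F13a1, Cd14, Ly6c2, Adgre1, Mpeg1 and Apoe), out of 46983 genes listed in the deposited counts. They were chosen by the read counts of C1qa and F13a1, whose levels lean lower in the Psip1 knockout, with the other 7 added as related markers, so the difference between the genotypes had a part in their choice. For these genes that difference is given as a description, without a test. All 9 had enough reads to be among the 12292 genes tested.

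Messenger RNA was sequenced from colonies grown from bone marrow progenitors, obtained by depleting the marrow of cells that carry mature lineage markers. The mice were C57BL/6, of 8 to 11 weeks by the sample labels and 8 to 10 weeks by the growth protocol. The semisolid culture medium contained the growth factors stem cell factor, IL-3 and IL-6, and colonies were collected on day 6 to 7. The WT group (3 libraries) is called wild type in the labels and PsipFl/Fl in the series design, so that its mice carry a floxed allele. The KO group (3 libraries) is called Psip1-KO and PsipVav/Vav, and what drives the deletion is not stated in the labels beyond the name Vav. The series asks, per its title, whether normal blood formation can do without LEDGF, the chromatin protein that Psip1 encodes. Libraries are called by group and replicate number, WT1 to WT3 and KO1 to KO3. The labels name no CSF1, the growth factor of macrophages, in the medium.

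C1q is the recognition part of the first component of complement. It is built from A, B and C chains, each with a collagen-like stalk and a globular head, and binds antibody complexes and dying cells. Tissue macrophages are its main source, unlike most complement proteins, which come from the liver. Monocytes arise in the marrow, carry Ly6C and CD14, and express F13a1, while F4/80 (Adgre1), perforin-2 (Mpeg1) and apolipoprotein E (Apoe) mark macrophages.

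The C1q genes lie side by side on the minus strand of chromosome 4 (GRCm38), C1qb from 136880129 to 136886187, C1qc from 136889804 to 136893065 and C1qa from 136895917 to 136898803. The gaps are 3616 bases between C1qb and C1qc and 2851 bases between C1qc and C1qa, and the whole cluster spans 18675 bases. In the RefSeq promoter table (GRCm38.p6) 6 of the 9 genes had an entry. The windows of 250 bases before the start of C1qb and C1qc are shown because these neighbours kept the closest ratio of all pairs within the cluster. F13a1 is shown as the other gene that leans lower in KO, and Mpeg1 as a gene with a different pattern. Bases inside the annotated gene body were left off, so that C1qc is shown with 99 bases. Capitals mark GAGGAA or its complement TTCCTC, the core that the myeloid factor PU.1 binds. The windows are chr4:136886201-136886450, chr4:136893066-136893164 and chr13:37050245-37050494 on the minus strand and chr19:12460520-12460769 on the plus strand, each written 5′ to 3′ on the strand of its gene.
C1qb: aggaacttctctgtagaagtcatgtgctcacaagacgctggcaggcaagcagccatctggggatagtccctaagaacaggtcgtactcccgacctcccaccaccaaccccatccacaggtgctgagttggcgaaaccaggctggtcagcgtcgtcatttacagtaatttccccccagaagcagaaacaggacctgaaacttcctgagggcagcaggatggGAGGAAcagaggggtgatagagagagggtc
C1qc: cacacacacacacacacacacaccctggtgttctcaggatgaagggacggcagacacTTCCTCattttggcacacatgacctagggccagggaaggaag
F13a1: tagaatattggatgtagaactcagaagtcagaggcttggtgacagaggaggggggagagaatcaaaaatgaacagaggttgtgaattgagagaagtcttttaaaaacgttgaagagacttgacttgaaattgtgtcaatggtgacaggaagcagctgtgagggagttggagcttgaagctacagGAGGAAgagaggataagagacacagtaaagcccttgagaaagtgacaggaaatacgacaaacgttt
Mpeg1: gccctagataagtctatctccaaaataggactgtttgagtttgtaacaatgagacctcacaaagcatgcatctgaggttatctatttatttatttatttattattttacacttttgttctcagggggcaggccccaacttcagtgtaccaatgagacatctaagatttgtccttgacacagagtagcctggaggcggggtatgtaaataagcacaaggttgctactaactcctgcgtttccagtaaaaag

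Counted from the RefSeq start, the match began 30 bases before it in C1qb, 193 in C1qc and 66 in F13a1. The window of Mpeg1 held none. The RefSeq start of C1qc lies inside the annotated gene body, so its count of 193 includes the bases left off above. The table holds a further F13a1 window, inside the annotated gene (chr13:37049214-37049463, minus strand), which had no match. Ly6c2 and Apoe, whose windows are not shown, had matches too. The Ly6c2 windows overlap and held the same match, 108 and 142 bases before their starts. The window with the match at 142 held a further match, 8 bases before its start. In Apoe matches began 250 and 132 bases before the starts of different windows, and the window chr7:19698622-19698871 had none. Whether a match goes with a gene's pattern was not tested. Searched on both strands, GAGGAA occurred in 23.3% of all 32851 promoter windows of this length, so a match is common. The MAF core TGCTGA (16.1% of windows) occurred once among the 4 windows shown, in C1qb at 131 bases before the start. TTGCNNAA, a C/EBP form (9.56%), and TGANTCA, the AP-1 form (6.75%), occurred in none of them. These matches describe letters, and binding was not measured.

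Library depth was uneven. The 5 deep libraries held 7056614 to 15569088 reads on genes, while WT3 held 27909 over its 2 runs. Levels are normalised CPM, which are counts per 1000000 reads of TMM-scaled library size. A single read of WT3 amounts to 29.8 CPM, and its floor of 3 reads lies at 89.3 CPM. Its values are therefore given as reads, and the mean of WT is that of WT1 and WT2. KO2 had 15.7% mitochondrial reads, against 1.26% to 1.84% in the other deep libraries. WT2 and KO1 read Xist (5910 and 12107 reads), and the other libraries read the Y-linked Eif2s3y, so the groups hold animals of both sexes. The labels do not say which libraries came from separate animals, so errors measure the spread between libraries, which may in part be technical. Counting intervals and floors cover counting error only. In these bulk samples fewer cells of a type and less RNA per cell cannot be told apart. Psip1 itself stood at 89.2 and 69.8 CPM in WT1 and WT2 and at 14.7, 17.5 and 16.3 CPM in KO1, KO2 and KO3, with 3 reads in WT3 (log2 fold change -2.32, SE 0.32, adjusted p = 0.0599 by edgeR's quasi-likelihood test).

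The C1q genes were scarce in these colonies and highest in WT2. C1qa, which encodes the A chain, had 31 and 98 reads in WT1 and WT2 and 12, 11 and 12 reads in KO1, KO2 and KO3. In CPM these are 2.25 and 9.57 in WT and 0.941, 1.74 and 0.790 in KO, a KO mean of 1.16 ± 0.508 (SD, n = 3). Both deep WT libraries lay above every KO library, yet the counting interval of WT1 (1.53 to 3.19 CPM) overlapped that of KO2 (0.867 to 3.11 CPM). WT3 had 0 C1qa reads, where the mean of the deep WT libraries would give 0.198 reads, so that library bears no information on this gene. The fitted log2 fold change was -2.35 (SE 0.67), or 5.09-fold lower in KO. It was -2.39 (SE 0.74) without WT3 and -0.96 (SE 0.71) without WT2, the library with the most C1q.

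C1qb, the B chain gene, was the most abundant of the C1q genes. It stood at 12.2 and 40.9 CPM in WT1 and WT2 and at 9.96, 19.3 and 3.10 CPM in KO1, KO2 and KO3. KO2 exceeded WT1, so the groups overlapped. The KO mean was 10.8 ± 8.11 CPM (SD, n = 3) and the log2 fold change -1.24 (SE 0.68), which became -0.11 (SE 0.75) without WT2. WT3 held 0 reads.

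C1qc, the C chain gene, followed C1qb. Its levels were 8.33 and 24.2 CPM in WT1 and WT2 and 6.12, 13.3 and 3.03 CPM in KO1, KO2 and KO3, again with KO2 above WT1. WT3 had 1 read. The log2 fold change was -1.20 (SE 0.62), and it was -0.35 (SE 0.74) without WT2. The lower fitted level of C1qb and C1qc in KO thus rested mainly on 1 WT library. Without WT3 the values were -1.33 (SE 0.78) for C1qb and -1.15 (SE 0.70) for C1qc.

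**Figure D1:**
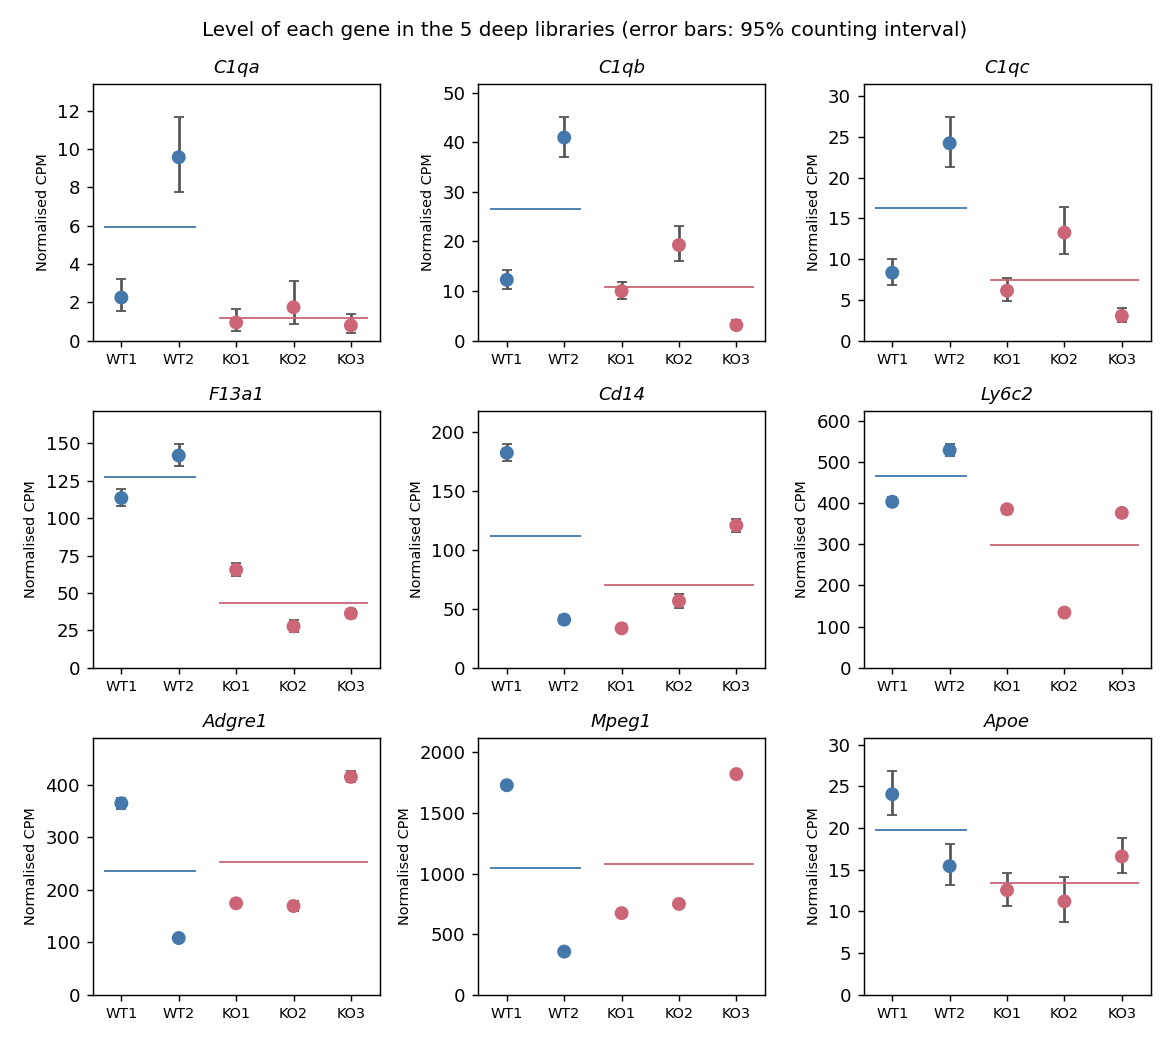
Normalised CPM (y axis, each from 0) of the 9 genes in WT1 and WT2 (blue) and KO1 to KO3 (red), with 95% counting intervals as bars and the group mean as a line. The C1q genes peak in WT2, F13a1 is lower in every KO library, and Cd14, Adgre1 and Mpeg1 are high in WT1 and KO3.

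The shares of the chains within a library are free of the scaling between libraries. C1qb made up 53.7% and 54.8% of the C1q reads in WT1 and WT2 and 58.5%, 56.2% and 44.8% in KO1, KO2 and KO3. The exact 95% interval of each of these shares overlapped those of the others, from 47.97% to 59.3% in WT1 to 35.0% to 54.8% in KO3, where only 105 C1q reads were found. C1qc took 32.4% to 43.8%. The C1qb to C1qc ratio lay between 1.02 in KO3 and 1.69 in WT2, while the summed C1q level ran from 6.92 to 74.7 CPM in the same libraries.

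C1qa was the smallest share throughout. It held 9.84% and 12.8% in WT1 and WT2 and 5.53%, 5.07% and 11.4% in KO1, KO2 and KO3. KO1 and KO2, at 11 or 12 C1qa reads each, had intervals of 2.89% to 9.46% and 2.56% to 8.89%, below the interval of WT2 (10.5% to 15.4%). They overlapped that of WT1 (6.79% to 13.7%), and KO3 did not share the low value. Because C1qa was chosen for its difference between the genotypes, its share is not independent of that choice.

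**Figure D2:**
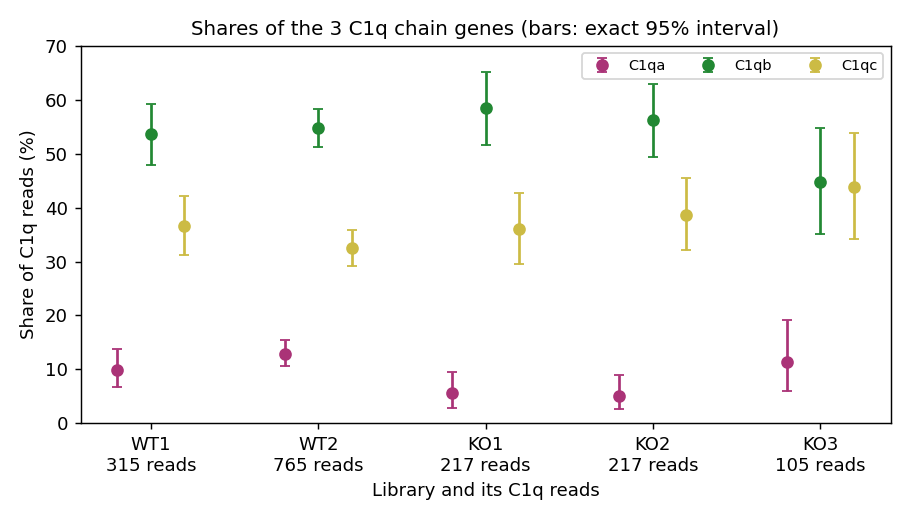
Share of each chain gene among the C1q reads of a library (y axis, percent) in the 5 deep libraries, with exact 95% intervals as bars and the number of C1q reads under each library. C1qb lies between 44.8% and 58.5% and C1qa between 5.07% and 12.8%, and the intervals are widest in KO3 with 105 reads.

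F13a1 encodes the A subunit of coagulation factor XIII, the transglutaminase that cross-links fibrin, and in blood cells it is made by monocytes and platelets (chromosome 13, 36867178 to 37050244). It was the member with the most even levels within the WT group. WT1 and WT2 stood at 113.5 and 141.9 CPM, and KO1, KO2 and KO3 at 65.5, 27.6 and 36.3 CPM, a KO mean of 43.1 ± 19.8 (SD, n = 3). Each KO library was below each deep WT library, by counting intervals too. WT3 had 1 read (exact 95% interval 0.0253 to 5.57), where the deep WT mean would give 4.29 reads and the KO mean 1.45, so the interval holds both. The log2 fold change was -1.42 (SE 0.43), or 2.67-fold lower, and it was -1.56 (SE 0.40) without WT3 and -1.18 (SE 0.48) without KO2. Unlike C1q, F13a1 kept a value below -1 whichever library was left out, between -1.83 and -1.17.

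F13a1 is also read in megakaryocytes. The 8 megakaryocyte markers summed to 598.9 and 832.8 CPM in WT1 and WT2 and to 903.2, 1071 and 602.9 CPM in KO1, KO2 and KO3. The sum was highest in KO2, where F13a1 was lowest, but only 1 of the 8 markers peaked there. Without the most abundant, Itga2b and Vwf, the sum was 223.0 CPM in KO2 and highest in WT2 (465.0 CPM).

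Ly6c2, which encodes the Ly6C antigen of inflammatory monocytes (chromosome 15, 75108158 to 75111970), was low in 1 library. It stood at 403.6 and 529.2 CPM in WT1 and WT2 and at 385.6, 134.2 and 376.6 CPM in KO1, KO2 and KO3. The deep libraries of the groups did not overlap, but KO1 and KO3 lay close under WT1, and the low mean of KO (298.8 ± 142.7 CPM, SD, n = 3) came from KO2. WT3 held 5 reads (exact 95% interval 1.62 to 11.7), where the deep WT mean would give 15.7 reads and the KO mean 10.0. That interval holds the KO mean and not the deep WT mean. The log2 fold change was -0.39 (SE 0.48), and -0.03 (SE 0.48) without KO2 and -0.64 (SE 0.48) without WT3. Its close copy Ly6c1 stood at 1.58 to 3.03 CPM in the deep libraries. Reads that match both copies equally were not counted, so both levels are uncertain.

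Cd14, the coreceptor for bacterial lipopolysaccharide (chromosome 18, 36725067 to 36726798), differed more within the groups than between them. Levels were 182.1 and 40.7 CPM in WT1 and WT2, a 4.47-fold gap, and 33.3, 56.5 and 120.6 CPM in KO1, KO2 and KO3. WT1 and KO3 were the high libraries. The log2 fold change of -0.63 (SE 0.60) turned to 0.67 (SE 0.60) without WT1, and was -0.67 (SE 0.72) without WT3, which held 3 reads.

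Adgre1 and Mpeg1 split the libraries the same way. Adgre1, an adhesion receptor known as F4/80 (chromosome 17, 57358691 to 57483527), had levels of 365.3 and 108.3 CPM in WT1 and WT2 and of 174.5, 169.4 and 415.5 CPM in KO1, KO2 and KO3. Mpeg1, the pore-forming protein perforin-2 of phagocytes (chromosome 19, 12460779 to 12465283), had levels of 1729 and 357.1 CPM in WT and of 674.4, 750.2 and 1822 CPM in KO. In both genes WT2 was the lowest and KO3 the highest of the deep libraries, and the groups overlapped. The KO means were 253.1 ± 140.6 and 1082 ± 641.5 CPM (SD, n = 3), and the deep WT means 236.8 and 1043 CPM. The log2 fold changes were 0.35 (SE 0.59) for Adgre1 and 0.23 (SE 0.60) for Mpeg1. Without KO3 they turned to -0.20 (SE 0.58) and -0.35 (SE 0.58), and without WT2 Mpeg1 turned to -0.15 (SE 0.61). Without WT3, which held 1 Adgre1 and 21 Mpeg1 reads, they were 0.10 (SE 0.63) and 0.05 (SE 0.74).

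Apoe, the lipid carrier that macrophages secrete (chromosome 7, 19696109 to 19699188), varied least. It stood at 24.1 and 15.4 CPM in WT1 and WT2 and at 12.6, 11.2 and 16.6 CPM in KO1, KO2 and KO3, so that KO3 exceeded WT2. The highest deep library was 2.15 times the lowest, against 13.2 times for C1qb and 12.1 times for C1qa. The log2 fold change was -0.68 (SE 0.43), and -0.55 (SE 0.35) without WT3, which held 2 reads.

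**Figure D3:**
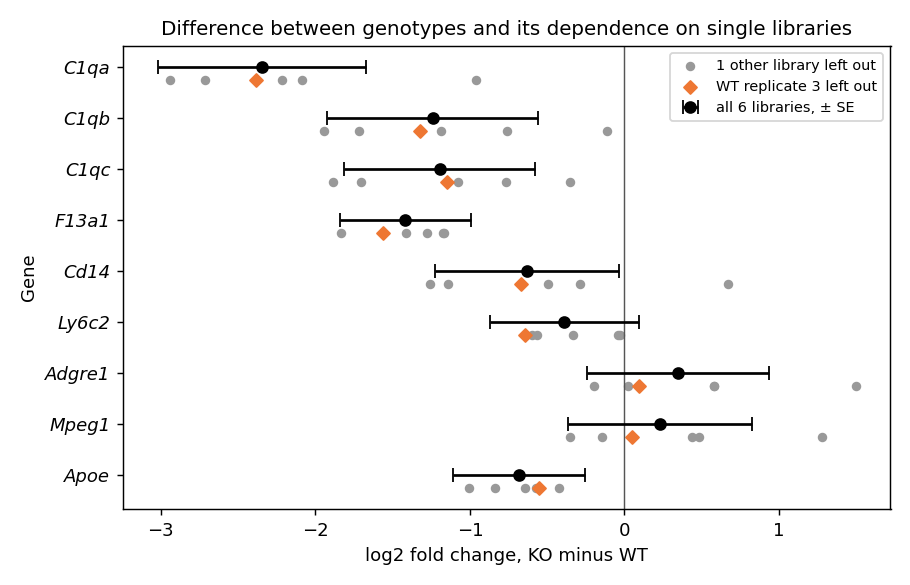
Fitted log2 fold change, KO minus WT (x axis), of each gene with all 6 libraries (black, bars are ± 1 SE), with WT3 left out (orange) and with each other library left out (grey). C1qb moves to -0.11 without WT2, F13a1 stays between -1.83 and -1.17, and Cd14, Adgre1 and Mpeg1 cross 0.

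Read as a set, 3 of the 9 genes (C1qa, F13a1 and Ly6c2) had both deep WT libraries above all KO libraries, a pattern that 3.9% of the 12292 tested genes showed, and 0 had the opposite one, which 4.78% showed. A negative log2 fold change was found for 7 of the 9, against 48% of all genes tested, and the median of the 9 was -0.68 against 0.01 for all genes. As the choice used this contrast, nothing is read from these counts. By edgeR's adjusted p, 0 of the 9 passed the threshold of 0.05, and 0% of all genes did in either direction. At an unadjusted p under 0.05 edgeR had 178 genes, limma-voom 108 and DESeq2 38. After adjustment limma-voom called 0 genes and DESeq2 called 1, and none of the 9 passed in any of the 15 alternative settings.

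Within the libraries that read Xist, WT2 against KO1, the level in KO was 0.0983 times that of WT for C1qa, 0.243 for C1qb, 0.253 for C1qc and 0.462 for F13a1. Within the libraries that read Eif2s3y, WT1 against KO2 and KO3, it was 0.5625 for C1qa, 0.913 for C1qb, 0.978 for C1qc and 0.282 for F13a1. Cd14 (0.819 and 0.486), Ly6c2 (0.729 and 0.633) and Apoe (0.813 and 0.578) were also below 1 in both. As C1qa, F13a1 and Ly6c2 had both deep WT libraries above all KO libraries, any such split puts them below 1, and nothing is read from it. For Mpeg1 the ratios were 1.89 and 0.743, and for Adgre1 1.61 and 0.801, on opposite sides of 1. With 1 WT library on each side these ratios have no replicate check.

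The members' levels ran parallel over the deep libraries to different degrees. Likeness was measured as the root mean square difference of log2 CPM, each gene centred on its mean over the 5 deep libraries, where 0 means parallel levels. C1qb and C1qc were 0.25 log2 units apart, C1qa and C1qc 0.54 and C1qa and C1qb 0.62. Adgre1 and Mpeg1 were 0.19 apart, and Cd14 lay 0.44 from Mpeg1. F13a1 and Ly6c2 were 0.56 apart. Among the members outside C1q, Apoe stood between the others, at 0.56 from Ly6c2, 0.59 from Adgre1, 0.67 from Cd14, 0.74 from Mpeg1 and 0.76 from F13a1. F13a1 lay 1.31 from Cd14, 1.31 from Adgre1 and 1.46 from Mpeg1. Ly6c2 lay 0.98 from Adgre1 and further from Cd14 and Mpeg1. F13a1 and Ly6c2 thus lay apart from Cd14, Adgre1 and Mpeg1, with Apoe between them. The C1q genes lay further from Apoe than these members did, at 1.18 for C1qa, 1.32 for C1qb and 1.11 for C1qc. The nearest member to the C1q genes was F13a1, at 0.84 from C1qa, 1.07 from C1qb and 0.98 from C1qc. F13a1 was thus closer to each C1q gene than to Cd14, Adgre1 or Mpeg1. C1qb and Mpeg1 were 1.98 apart, and Mpeg1 was 4.78 times the summed C1q level in WT2 and 263 times in KO3. These are descriptions over 5 libraries that share depth and cell makeup.

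**Figure D4:**
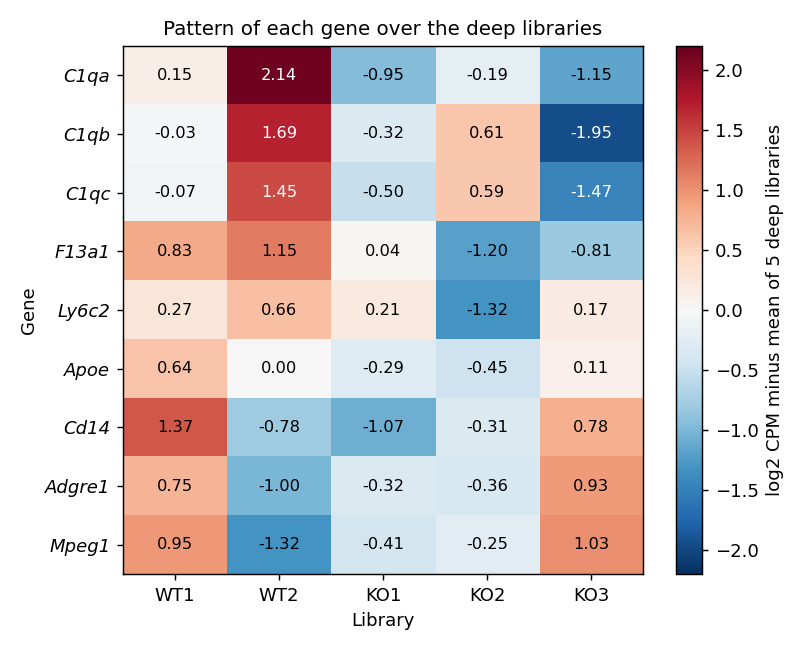
Log2 CPM of each gene (rows) in each deep library (columns), minus that gene's mean over the 5 libraries (colour and printed value). The C1q rows are highest in WT2 (1.45 to 2.14) and lowest in KO3, where Cd14, Adgre1 and Mpeg1 stand at 0.78 to 1.03.

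Among 11311 other named genes with a mean of at least 1 CPM, those close to C1qa included Mcpt4, a mast cell chymase (0.33 log2 units), the ganglioside synthase gene St8sia1 (0.52), C1qc (0.54) and Fam169b (0.58). Fam169b stood at 0.132 CPM in KO3, under the floor of 3 reads (0.198 CPM). Mcpt4 stood at 21.6 and 74.2 CPM in WT1 and WT2 and at 5.57, 13.6 and 9.68 CPM in KO1, KO2 and KO3. Closest to F13a1 were Msantd3 (0.28), the Xk blood group gene (0.35), the interferon-inducible GTPase gene Ifi47 (0.36), the receptor-like gene Ptk7 (0.39) and the calcium pump gene Atp2b2 (0.41). None of these is a monocyte marker on the lists used here. As both genes were chosen for their lower level in KO, genes close to them share that feature by construction.

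Per kilobase of annotated exon, Mpeg1 was the most abundant of the 9, at 246 ± 153 CPM per kb (mean over the 5 deep libraries of both genotypes, SD, n = 5). Ly6c2 followed at 134 ± 52.4, Adgre1 at 76.2 ± 41.7 and Cd14 at 50.0 ± 36.6 CPM per kb. Then came C1qb at 15.7 ± 13.3, F13a1 at 11.4 ± 7.33, Apoe at 7.47 ± 2.34, C1qc at 5.69 ± 4.29 and C1qa at 2.94 ± 3.55 CPM per kb. The ranges of every pair of neighbours in this order overlapped. Within single libraries, however, Adgre1 exceeded Cd14 and C1qc exceeded C1qa in 5 of 5. Reads on the opposite strand were at most 0.522% of a member's reads (C1qc), and no annotated gene overlaps any of the 9.

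Marker lists showed colonies of mixed myeloid makeup. The 50 macrophage genes, the members among them, summed to 29014 and 14752 CPM in WT1 and WT2 and to 18933, 23217 and 30607 CPM in KO1, KO2 and KO3. Summed C1q was 22.8 and 74.7 CPM in the same WT libraries and 17.0, 34.2 and 6.92 CPM in KO, so C1q was highest in the library with the lowest macrophage sum and lowest in the one with the highest. Without the most abundant, Ctsd and Spp1, the macrophage sum was still lowest in WT2 (9613 CPM) and highest in KO3 (18561 CPM). Its genes were divided, however. Of 49 with reads, 25 were lowest and 11 highest in WT2, and 17 were highest and 7 lowest in KO3, the C1q genes among the 11 and the 7. The monocyte list of 30 genes ranged from 18839 to 20295 CPM in 4 deep libraries and stood at 11027 CPM in KO2, where Ly6c2 and F13a1 were lowest. Lyz2 and Chil3 made up most of that sum. Without them it was 5680, 5824 and 5700 CPM in WT1, WT2 and KO1 and 4650 and 4826 CPM in KO2 and KO3, so KO2 no longer stood apart, and 12 of the 30 genes were lowest in KO2 and 7 highest there. Only 1 macrophage marker, Timd4 of long-lived tissue macrophages, had no read in any deep library, and 0 monocyte markers did. Others were scarce, as only 44 of the 50 macrophage genes had enough reads to be tested, against all 30 monocyte genes.

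Markers of other cells moved with the libraries as well. The 16 neutrophil markers summed to 47797 and 103190 CPM in WT1 and WT2 and to 91781, 42595 and 37562 CPM in KO1, KO2 and KO3. The 15 mast cell and basophil markers summed to 6718 and 5360 CPM in WT and to 3558, 10608 and 4885 CPM in KO. Of the 16 neutrophil markers 15 were highest in WT2 or KO1, the libraries that read Xist. The mast cell and basophil sum was highest in KO2, also without its most abundant genes Cpa3 and Mcpt8 (4295 CPM, against 1668 to 3043 CPM elsewhere), but its genes were divided. Only 5 of the 15 were highest in KO2 and 9 in WT1 or WT2, among them Mcpt2 with 315.6 CPM in WT1 and 23.5 CPM in KO2. None of the neutrophil or mast cell markers was at 0 in all deep libraries. The 12 dendritic cell markers summed to 181.0 to 448.2 CPM and the 10 eosinophil markers to 525.8 to 1854 CPM, with Cd209a the only one of these 22 at 0. T and NK cell markers summed to 280.4 to 564.8 CPM, but to 2.53 to 4.93 CPM without the most abundant, Gzmb and Nkg7. Stromal and endothelial markers summed to 160.6 to 269.7 CPM, but to 18.4 to 38.4 CPM without Pecam1 and Vcam1. Erythroid (49.7 to 215.6 CPM) and B cell markers (20.5 to 81.7 CPM) were low. At 0 in all deep libraries were Cd3e and Cd3g of T cells, Ms4a1 of B cells, and Col3a1 and Cxcl12 of stroma. The part of cell makeup in the members' levels was not tested.

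**Figure D5:**
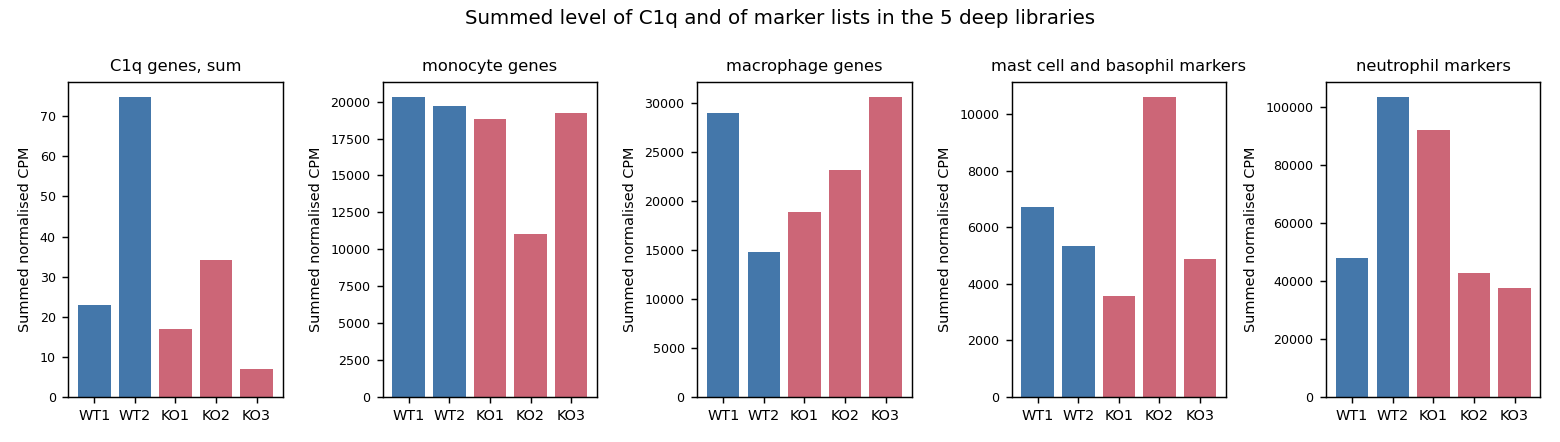
Summed normalised CPM (y axes, each from 0) of the 3 C1q genes and of 4 marker lists in the 5 deep libraries, WT in blue and KO in red. Summed C1q is highest in WT2 (74.7 CPM), where the macrophage list is lowest (14752 CPM), and lowest in KO3 (6.92 CPM), where that list is highest (30607 CPM). The genes of that list were divided, with 25 of 49 lowest and 11 highest in WT2, and 17 highest and 7 lowest in KO3.

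The genes around the members were read from pathway lists in the same fit over all genes, where the median log2 fold change of all tested genes was 0.01. By edgeR 0 genes of any list passed the threshold in either direction. Apart from the members, 38 macrophage genes were tested, 27 with a positive and 11 with a negative value (median 0.19). The 2 of lowest p were Marco, a scavenger receptor for bacteria, and Ctsk, a collagen-degrading protease. Marco stood at 3.84 and 3.42 CPM in WT1 and WT2 and at 10.6, 14.8 and 15.1 CPM in KO1, KO2 and KO3 (log2 fold change 1.91, SE 0.44, edgeR adjusted p = 0.894). Ctsk stood at 30.5 and 33.8 CPM in WT and at 66.7, 89.8 and 75.6 CPM in KO (1.33, SE 0.37). Both were higher in each KO library than in each deep WT library, opposite to C1qa and F13a1, and had 0 reads in WT3.

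Of the monocyte list 27 other genes were tested, 11 with a positive and 16 with a negative value (median -0.08). Ace, the angiotensin-converting enzyme, was at 1.51 (SE 0.72) on under 2 CPM, and Klf4, a transcription factor of monocytes, at 0.86 (SE 0.43). Of 23 transcription factors of the lineage, 14 lay above and 9 below 0 (median 0.15), with Klf4 and Egr2 (0.92, SE 0.52) of lowest p. Of 8 genes tested on a list of colony-stimulating factors, their receptors and the adaptor genes Tyrobp and Dok2, 7 lay above 0 (median 0.41), among them Csf3r (0.50, SE 0.38) and Csf2rb2 (0.72, SE 0.65).

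Few complement genes beyond C1q could be tested. Of the other early classical and lectin pathway genes 3 were, among them the central component gene C3, at 2477 and 1760 CPM in WT and 1342, 772.3 and 2567 CPM in KO (log2 fold change -0.25, SE 0.50). C1ra, a protease of the C1 complex, was at 1.23 (SE 0.56) and C4a at 0.88 (SE 0.73), both at no more than 2.21 CPM. The lectin genes Masp1, Mbl1 and Mbl2 had no read in a deep library. In the alternative and terminal pathway only Cfp, which encodes properdin (241 to 467 CPM, log2 fold change -0.01, SE 0.41), and the scarce C8g (-0.71, SE 0.76) could be tested. Complement receptors had 8 positive and 4 negative values among 12 tested (median 0.24). Itgax, a subunit of a receptor for cleaved C3, was at 0.97 (SE 0.46), and the C5a receptor gene C5ar1 at -0.33 (SE 0.34). Among the regulators 4 were tested, with Cd46 at 0.77 (SE 0.57) and Cd55 at 0.46 (SE 0.42).

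In the coagulation and fibrinolysis list, which holds F13a1, 17 other genes were tested, 9 above and 8 below 0 (median 0.15). Plau, the urokinase gene, was at 0.56 (SE 0.33) and its inhibitor gene Serpinb2 at 0.40 (SE 0.44), and F13b, the partner subunit made by the liver, had no read in a deep library. Around Cd14, 22 Toll-like receptor and signalling genes split 12 to 10 (median 0.04), with Tlr3 at 1.08 (SE 0.70) and Tlr1 at 0.41 (SE 0.47). Around Apoe, 20 lipid transport genes split 15 above to 5 below (median 0.23). Rxra, a partner of the nuclear receptors that induce lipid efflux, was at 0.85 (SE 0.34) and the fatty acid receptor gene Cd36 at 0.57 (SE 0.37).

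For the families of the other markers, 5 further Ly6 genes were tested, 2 above and 3 below 0 (median -0.33), with Ly6a at 0.47 (SE 0.36) and Ly6c1 at -0.47 (SE 0.50). Of 6 adhesion receptors beside Adgre1, 5 lay above 0 (median 0.53), with the scarce Adgrb1 at 1.50 (SE 0.66) and Adgrl1 at 1.01 (SE 0.55). Of 5 pore and inflammasome genes beside Mpeg1, 3 lay above 0 (median 0.03), with the caspase genes Casp1 at 0.25 (SE 0.43) and Casp4 at -0.21 (SE 0.45). All genes named from these lists other than Marco had an edgeR adjusted p = 1.00.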

How the data were processed

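The authors deposited raw read counts for each gene, with a separate file for each run. Per the submitters' processing notes the tools were STAR 2.5.1b, whose gene counter writes this layout, and DESeq2, and the build was GRCm38. No source used here gives the annotation release. Libraries were made with a stranded kit per the labels' protocols, and the count on the opposite strand (column 4) was used, which held 95.6% to 97.5% of stranded gene reads. The 4 rows that name no gene (25.6% to 47.8% of reads) were left out. Both runs of WT3 (27351 and 558 gene reads) were summed. Of 46983 genes 46488 were matched by identifier, without version, to symbols and GENCODE M21 (GRCm38) coordinates and exon lengths.

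The main test was edgeR 4.0.16 (filterByExpr, TMM scaling, robust glmQLFit and two-sided glmQLFTest on genotype alone), with a Benjamini-Hochberg threshold of 0.05. The SE is the log2 fold change over the root of F. Log2 CPM used a prior count of 2. Intervals are exact Poisson or Clopper-Pearson at 95%. Alternatives used DESeq2 1.42.0, limma 3.58.1, other scaling, filtering, strand, runs, a replicate block and leaving out each library. In simulated counts at these depths (11931 genes) edgeR called 6% of 100 genes changed by 1 log2 unit and 98% of 100 changed by 3, with 18 false calls. The changed genes were drawn only from genes above a set mean level, which C1qa does not reach, so these shares do not cover it.

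The members and gene lists were chosen with earlier results of these data known. Named genes are the members, Psip1, the 2 listed genes of lowest p per pathway list and the 5 genes closest in pattern to C1qa and F13a1, except for 1 gene that is not reported here. C3, Timd4, F13b, Mcpt2, the 2 most abundant genes of a marker list, Xist, Eif2s3y, other genes at 0 and those named only in the closing section were chosen after their values were seen.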

Additional observations from a re-analysis of the deposited data

How the results depend on the processing

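Of the 9 genes, 6 kept the sign of their log2 fold change in all 15 alternatives: C1qa (-2.94 to -0.96), C1qb (-1.94 to -0.11), C1qc (-1.88 to -0.35), F13a1 (-1.83 to -1.17), Ly6c2 (-0.73 to -0.03) and Apoe (-1.01 to -0.42). The sign turned for Cd14 without WT replicate 1 (0.67), for Adgre1 without KO replicate 3 (-0.20) and for Mpeg1 without WT replicate 2 (-0.15) or KO replicate 3 (-0.35). The cause was not tested. Leaving out 1 library moved Cd14 between -1.26 and 0.67, Adgre1 between -0.20 and 1.50 and Mpeg1 between -0.35 and 1.28. The number of genes called over the whole table was 0 with all libraries and edgeR. It was 2 with scaling by library size only, 9 without a filter on low counts, 1 with DESeq2, 5 without WT replicate 1 or KO replicate 3, 3 without WT replicate 2, 2 without KO replicate 1 and 0 without WT replicate 3 or KO replicate 2. DESeq2 with WT replicate 3 left out, an alternative added after the data were seen, called 12. A replicate block called 13 genes (8 higher, 5 lower), none of them among the 9. With the block C1qa was at -1.81, C1qb at -0.65 and F13a1 at -1.32. The labels give no pairing, same-numbered libraries had correlations of -0.29, -0.03 and -0.15 in their deviations from the group means, and 0 of 6 libraries matched their own number best. Mean CPM in KO moved by less than its SD with scaling by library size only, counts without strand or the first run of WT replicate 3 alone, and the C1qb shares by less than their intervals with counts without strand. Depth limits C1qa most, at 11 or 12 reads per KO library, and WT replicate 3 gives at most 21 reads for any of the 9.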

Other observations

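The genes closest in pattern to the other members, chosen after their values were seen, are given here as values over the 5 deep libraries. Closest to C1qb and to C1qc was Fam169b (0.16 and 0.23 log2 units). It was scarce, at 1.16 and 3.22 CPM in WT1 and WT2 and 0.784, 1.42 and 0.132 CPM in KO1, KO2 and KO3. The KO3 value lies under the floor of 3 reads (0.198 CPM), so this likeness is uncertain. Ms4a4a, a membrane gene, was the third for both (0.27 and 0.28), at 15.7 and 36.0 CPM in WT1 and WT2 and 14.8, 27.1 and 4.35 CPM in KO1, KO2 and KO3. Prss34, a basophil protease, came next for C1qb (0.40), at 543.9 and 1136 CPM in WT and 455.8, 1082 and 93.1 CPM in KO.

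Closest to Adgre1 was Lipa, the lysosomal acid lipase (0.07 log2 units), at 567.8 and 149.4 CPM in WT1 and WT2 and 251.6, 256.5 and 643.9 CPM in KO1, KO2 and KO3. Lipa was also among the 5 closest to Mpeg1 (0.12). The 5 genes closest to Cd14 included the NF-kappaB subunit gene Nfkb2 (0.14) and Sod2, the mitochondrial superoxide dismutase (0.16). Sod2 stood at 400.7 and 74.6 CPM in WT and 69.7, 107.2 and 303.4 CPM in KO. Closest to Ly6c2 were Cenpp (0.09) and Homez (0.11), and Lcn2, a neutrophil granule gene, came next (0.13). Among the 5 genes closest to Apoe was the sterol synthesis gene Msmo1 (0.09).

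One macrophage gene other than the members had an unadjusted edgeR p under 0.05 on the lower side. Nos2, the inducible nitric oxide synthase, had 61 and 94 reads in WT1 and WT2 and 34, 14 and 57 in KO1, KO2 and KO3 (log2 fold change -1.36, SE 0.56, adjusted p = 1.00).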
